A study of Arabidopsis thaliana with 27 samples.

Results

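Seeds of 2 Arabidopsis thaliana mutants were compared 12 h into darkness after a pulse of red light: hid1, which lacks transcripts of the noncoding RNA HID1, and phyB, a mutant of the red light photoreceptor phytochrome B. The comparison was chosen by the labels alone. It took the 3 libraries labelled hid1 at 12 h and the 3 labelled phyB at 12 h, 6 of the 27 libraries of the series, and covered all genes. The series held hid1, phyB and wild-type Col-0 (WT) seeds at 12, 24 and 48 h, with 3 biological replicates in each of the 9 groups. The hid1, phyB and WT seeds were treated alike: they had dried for about 2 months, were in white light for 1 h, and then had 5 min of red light at 20 µmol m-2 s-1, which turns phytochrome B on. The labels give no allele for either mutant and no part of the seed, so embryo, endosperm and seed coat were read together. In such bulk samples, fewer cells of a type and less RNA per cell cannot be told apart. Germination itself was not analysed here.

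Red light turns phytochrome B into its active form, which enters the nucleus and removes the PIF transcription factors. In imbibed seeds the main one is PIF1, named PIL5 in the files, which holds germination back by keeping abscisic acid (ABA) action high and gibberellin (GA) action low. HID1 is a long noncoding RNA of plants, first known from seedling growth in red light, and the series set its mutant beside phyB to follow phytochrome B-dependent germination. A comparison of hid1 with phyB asks where seeds without HID1 transcripts differed from seeds of the photoreceptor mutant.

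Of the gene lists described here, that of endoplasmic reticulum (ER) chaperone and ER stress genes was lower in hid1 in 19 of 20 genes. That of storage proteins and oil body proteins was higher in all 15. Among all genes tested 29.5% were lower and 33.9% higher. The lists were chosen with earlier results of these data known. Sequences upstream of some genes of these 2 lists are shown for the motifs they hold. The ER stress response element (ERSE) is CCAATNNNNNNNNNNCACG, bound in Arabidopsis by bZIP28 together with NF-Y factors, and the G-box is CACGTG, a site bound by PIFs and other bHLH and bZIP factors. Windows were the 250 bases before the gene start in RefSeq (TAIR10.1), searched on both strands, and 20039 of the tested genes had one. ERSE stood in 0.863% of all these windows and in 5 of the 20 windows of the ER list (25%). It stood in 1.57% of the 2032 windows of genes at least 2-fold lower in hid1 and in 0.586% of the 2391 windows of genes at least 2-fold higher. The ERSE was added to the search after the values had been seen, and a match is a description of letters, not a site shown to be used. The 5 ER list windows with the motif belong to BIP3 (chr1:2931851-2932100, - strand), PDIL1-1 (chr1:7645360-7645609, + strand), PDIL1-2 (chr1:29126398-29126647, + strand), CRT1a (chr1:21092710-21092959, - strand) and SHD (chr4:12556059-12556308, - strand). They read 5′ to 3′ towards the gene, with the fixed letters of the ERSE in capitals (CGTG before ATTGG where the match is on the other strand):
BIP3: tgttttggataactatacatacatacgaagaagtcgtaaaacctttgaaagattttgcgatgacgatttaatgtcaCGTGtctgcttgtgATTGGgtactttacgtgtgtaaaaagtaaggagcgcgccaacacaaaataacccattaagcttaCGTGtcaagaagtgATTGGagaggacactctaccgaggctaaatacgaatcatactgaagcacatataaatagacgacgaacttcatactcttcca
PDIL1-1: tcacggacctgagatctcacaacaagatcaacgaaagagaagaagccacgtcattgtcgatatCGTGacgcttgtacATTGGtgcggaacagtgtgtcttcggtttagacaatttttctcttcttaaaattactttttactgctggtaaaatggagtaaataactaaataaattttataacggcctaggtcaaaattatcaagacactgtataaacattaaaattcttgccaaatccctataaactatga
PDIL1-2: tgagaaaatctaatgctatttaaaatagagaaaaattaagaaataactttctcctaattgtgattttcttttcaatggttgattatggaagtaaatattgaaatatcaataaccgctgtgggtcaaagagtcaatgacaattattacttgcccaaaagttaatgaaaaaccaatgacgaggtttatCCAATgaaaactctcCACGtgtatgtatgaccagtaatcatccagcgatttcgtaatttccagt
CRT1a: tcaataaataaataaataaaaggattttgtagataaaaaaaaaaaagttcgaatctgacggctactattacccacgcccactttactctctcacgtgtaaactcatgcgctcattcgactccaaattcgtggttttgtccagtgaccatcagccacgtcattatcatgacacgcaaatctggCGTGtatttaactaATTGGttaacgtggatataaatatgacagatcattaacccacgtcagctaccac
SHD: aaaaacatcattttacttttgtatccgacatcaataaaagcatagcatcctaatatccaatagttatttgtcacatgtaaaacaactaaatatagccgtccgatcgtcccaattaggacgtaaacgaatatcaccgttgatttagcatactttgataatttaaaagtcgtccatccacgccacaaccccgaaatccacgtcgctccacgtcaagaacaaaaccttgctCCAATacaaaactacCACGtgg

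BIP3 held 2 matches, which began 174 and 96 bases before the start, and the other windows held 1 each, which began 187 bases before the start in PDIL1-1, 64 in PDIL1-2, 68 in CRT1a and 22 in SHD. The G-box stood in 7.48% of all windows, in 7 of 15 storage and oil body windows (46.7%) and in 7 of 20 ER windows (35%). The share was close in both directions of change: 8.70% of windows of genes at least 2-fold higher in hid1 and 8.56% of those at least 2-fold lower held it. The core ACGTG, which every G-box contains, stood in 24.0% of all windows, 66.7% of storage windows and 60.0% of ER windows. The sequence TGACGTGG, known as the unfolded protein response element, also contains that core and stood in 3 of 20 ER windows (15%) and 1.52% of all. The windows of SESA1 (chr4:13607079-13607328, + strand) and OLEO1 (chr4:12900180-12900429, + strand), a seed storage albumin and an oleosin, show the G-box in capitals:
SESA1: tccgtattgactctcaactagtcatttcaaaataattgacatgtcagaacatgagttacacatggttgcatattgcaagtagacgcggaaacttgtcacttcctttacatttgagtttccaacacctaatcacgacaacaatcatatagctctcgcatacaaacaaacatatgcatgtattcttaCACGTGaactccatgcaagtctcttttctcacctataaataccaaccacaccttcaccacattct
OLEO1: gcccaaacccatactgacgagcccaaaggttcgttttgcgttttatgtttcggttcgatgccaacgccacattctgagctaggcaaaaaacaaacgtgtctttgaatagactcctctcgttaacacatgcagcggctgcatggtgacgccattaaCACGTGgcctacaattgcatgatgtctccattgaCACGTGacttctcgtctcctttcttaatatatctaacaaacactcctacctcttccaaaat

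The hid1 libraries held 18457590 to 21289363 counts and the phyB libraries 14750212 to 16746837. The hid1 libraries were not alike among themselves: replicate 2 differed from each of the others by 17.1 and 19.6 times the counting variance per degree of freedom, against 3.21 between replicates 1 and 3, and 2.04 to 4.36 among the phyB libraries. The phyB libraries stood apart from the other 12 h libraries in the RNA they held. Mitochondrial genes took 0.0764 to 0.116% of the counts in hid1, 0.0178 to 0.0202% in phyB and 0.128 to 0.160% in WT, and the 9 libraries labelled 24 h lay at 0.0151 to 0.0280%. Ribosomal RNA took 0.261 to 0.425% in hid1, 0.0673 to 0.0796% in phyB and 0.503 to 0.768% in WT, against 0.0521 to 0.114% in the libraries labelled 24 h. In both shares the phyB libraries labelled 12 h thus lay among the libraries labelled 24 h. The phyB libraries labelled 24 h lay at 0.0195 to 0.0246% in mitochondrial and 0.0745 to 0.108% in ribosomal RNA share. The 2 sets of phyB libraries overlapped in both, so these shares do not separate them. Chloroplast genes took 0.317 to 0.375% in hid1 and 0.0860 to 0.0922% in phyB, and the phyB range lay below the 0.166 to 0.309% of the 24 h libraries too. Whether the label, the seeds or the preparation of these 3 libraries set them apart cannot be told apart from the files. The labels were therefore kept, and the difference from the phyB libraries labelled 24 h is given beside many of the results.

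**Figure D1:**
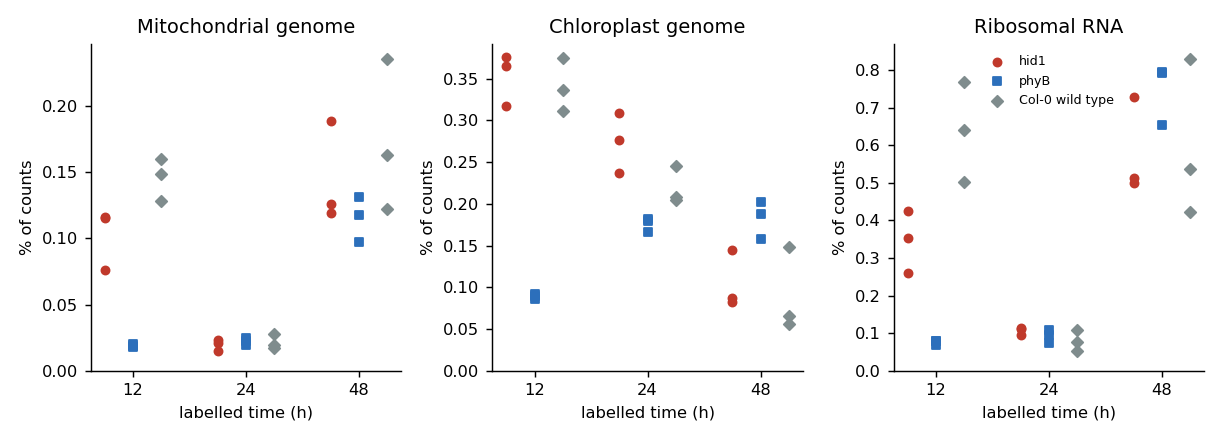
Percent of all counts that fell on mitochondrial genes, chloroplast genes and ribosomal RNA in each of the 27 libraries, by labelled time (h) and genotype, 1 point a library. The 3 phyB libraries at 12 h lie far below the hid1 and WT libraries of that time in all 3 panels, in mitochondrial share at 0.0178 to 0.0202% against 0.0764 to 0.116% in hid1.

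The genotype labels were checked first. HID1 had 2 counts in the 3 hid1 libraries together (1, 0 and 1), against 279, 313 and 361 counts in the phyB libraries, a ratio of phyB to hid1 of 524 (95% counting interval 145 to 4333). Levels of HID1 were 18.22, 17.97 and 20.5 CPM (a gene's share of its library's counts, per 1e+06, on library sizes scaled by the TMM method) in phyB seeds, and WT seeds averaged 24.5 CPM. The authors' FPKM values, deposited as 1 value a group, were 0.0706 in hid1, 62.8 in phyB and 46.7 in WT, so phyB lay above WT in FPKM and below it in CPM. The protein-coding gene AT2G35750, singled out after its values were seen, followed HID1 from library to library: its counts were 77.8 to 93.1% of those of HID1 in the 18 phyB and WT libraries and the same as those of HID1 in all 9 hid1 libraries. Whether the 2 genes share reads was not tested, and the value of AT2G35750 is uncertain. PHYB had 111, 124 and 113 CPM in hid1 seeds, against 59.2, 55.9 and 54.9 CPM in phyB seeds, with no overlap (log2 difference 1.04 ± 0.06 (SE), adjusted p = 3.86e-14, edgeR quasi-likelihood test with Benjamini-Hochberg adjustment over all genes, used for every adjusted p below). WT seeds averaged 117 CPM. As the phyB allele is not given, what remains of this transcript in phyB checks nothing by itself.

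Of 20465 genes tested, 12970 (63.4%) differed between hid1 and phyB at 12 h, at an adjusted p under 0.05. In hid1, 6928 genes were higher (33.9%) and 6042 were lower (29.5%), and these shares are the background of the 12 h list counts below. By at least 2-fold, 2584 were higher (12.6%) and 2082 lower (10.2%), and by at least 4-fold 877 were higher and 918 lower. In 12615 genes (61.6%) the difference passed the test and the 3 hid1 and 3 phyB libraries did not overlap. With no test, 14003 genes (68.4%) did not overlap. Most list members named below were taken by smallest p among those that passed. That their libraries did not overlap follows from this choice and adds no support. Genes higher in hid1 made up 53.4% of those that passed, but 41.4% (5412 higher, 7670 lower) where libraries were scaled by total counts, which moves the median of all genes by -0.10 on the log2 scale. WT seeds were much nearer to hid1 than to phyB: 2741 genes (13.4%) differed between hid1 and WT and 13144 (64.2%) between phyB and WT, comparisons that share their WT libraries. Against the phyB libraries labelled 24 h, 12295 genes (60.1%) differed from hid1 at 12 h. In hid1, 7.49% of the genes were higher and 5.91% lower than in WT, in phyB 30.0% were higher and 34.2% lower than in WT, and in hid1 30.0% were higher and 30.1% lower than in the phyB libraries labelled 24 h.

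**Figure D2:**
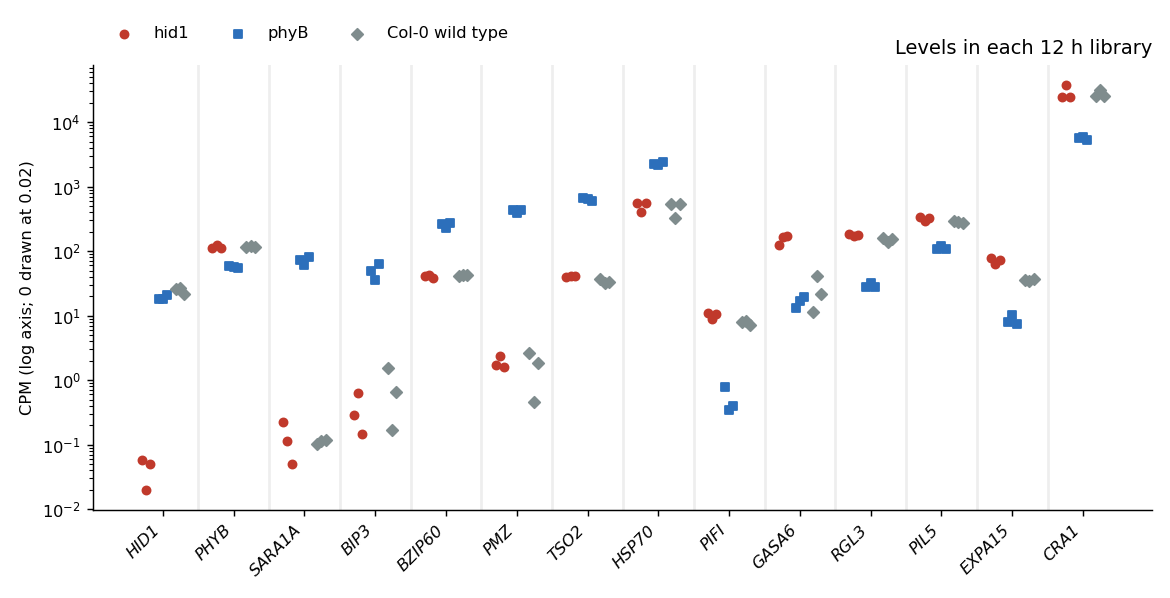
CPM on a log axis of 14 genes in each 12 h library, 3 points a genotype, with 0 drawn at the foot. hid1 and phyB libraries do not overlap in any of the 14 genes, as in 68.4% of all genes tested, and some of the 14 were chosen on that condition. WT lies beside hid1 in most of them, as in BZIP60 with a WT mean of 42.1 CPM, but beside phyB in GASA6 with a WT mean of 24.6 CPM.

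ER folding and ER stress genes were lower in hid1 with 1 exception. Of 20 genes tested, 19 were lower in hid1 and 1 was higher, with a median log2 difference of -1.51, against 0.03 over all genes. The largest fitted difference among the members was in SARA1A, a small GTPase of the SAR1 type that builds COPII vesicles leaving the ER. SARA1A had 0.227, 0.114 and 0.0494 CPM in hid1 seeds, against 72.5, 60.6 and 81.9 CPM in phyB seeds, and WT seeds averaged 0.111 CPM (log2 difference -9.07 ± 0.22 (SE), adjusted p = 2.04e-22). The hid1 libraries held only 4, 2 and 1 counts of SARA1A, so this SE, derived from the F statistic, is too small. BIP3, the stress-induced form of the ER chaperone BiP, had 0.284, 0.629 and 0.148 CPM in hid1 seeds, against 48.6, 36.3 and 63.1 CPM in phyB seeds (log2 difference -7.14 ± 0.37 (SE), adjusted p = 1.86e-15). In neither gene did any library of one mutant approach the level of the other. BZIP60, the transcription factor switched on by IRE1 splicing in ER stress, had 40.9, 43.1 and 38.5 CPM in hid1 seeds, against 265, 228 and 274 CPM in phyB seeds (log2 difference -2.65 ± 0.07 (SE), adjusted p = 2.04e-21). BZIP28, the membrane-bound factor that is released from the ER under stress, had 53.1, 52.9 and 55.3 CPM in hid1 seeds, against 158, 145 and 156 CPM in phyB seeds (log2 difference -1.51 ± 0.05 (SE), adjusted p = 8.9e-19). ATERDJ3A, a DnaJ-type co-chaperone of BiP, had 13.9, 13.4 and 14.3 CPM in hid1 seeds, against 131, 109 and 139 CPM in phyB seeds (log2 difference -3.19 ± 0.10 (SE), adjusted p = 2.5e-20). All 3 sets of hid1 libraries were close together and lay well under every phyB library.

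The other genes whose windows hold the ERSE were lower in hid1 as well. PDIL1-2, a protein disulfide isomerase, averaged 158 ± 12.6 CPM in hid1 and 760.3 ± 34.3 CPM in phyB (SD, n = 3 each), a log2 difference of -2.27. The difference was -1.55 for SHD, the ER HSP90, -1.02 for the lectin chaperone CRT1a, and -0.46 for the disulfide isomerase PDIL1-1. BIP1 and BIP2, near-identical BiP genes whose reads the counting may not separate, differed by -1.34 and -2.34. The 1 member higher in hid1 was CRT3, a plant calreticulin that acts on surface receptors, at 47.9, 43.4 and 47.7 CPM in hid1 seeds, against 27.1, 27.2 and 28.4 CPM in phyB seeds (log2 difference 0.75 ± 0.06 (SE), adjusted p = 5.12e-11). The members named in these sentences, other than BIP3, were chosen after their values were seen. In the comparison of hid1 with WT, 7 members were higher and 1 lower (median 0.17), and in that of phyB with WT 19 were higher and 1 lower (median 1.64). Against the phyB libraries labelled 24 h, 17 members were lower in hid1 and 1 higher, with a median of -0.96. At 24 h the median difference was -0.27 with 3 members higher and 11 lower in hid1, and at 48 h it was 0.25 with 9 higher and 6 lower.

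Heat shock genes were also lower in hid1 in most cases that passed: 11 of 20 were lower and 3 higher, against 29.5% lower and 33.9% higher of all genes. The median was -0.86, or -0.65 without phyB replicate 3. HSP70, a cytosolic chaperone, had 555, 407 and 559 CPM in hid1 seeds, against 2255, 2158 and 2398 CPM in phyB seeds (log2 difference -2.16 ± 0.14 (SE), adjusted p = 2.32e-13). HSP90.1, the stress-induced HSP90 of the cytosol, had 85.7, 71.8 and 87.8 CPM in hid1 seeds, against 494, 434 and 556 CPM in phyB seeds (log2 difference -2.60 ± 0.18 (SE), adjusted p = 5.15e-13). No hid1 library reached a phyB library in either gene. Against the phyB libraries labelled 24 h, the same 11 to 3 count was found, yet HSP70 there averaged 554 CPM. Some members went the other way: HSFA9, the heat shock factor of developing seeds, differed by 1.09 (adjusted p = 2.33e-07) and ATHSP22.0, a small heat shock protein, by 2.62 (adjusted p = 1.02e-08), both chosen after their values were seen.

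Storage protein and oil body genes were all higher in hid1. These transcripts are made as seeds mature and remain in the dry seed. All 15 members passed, with a median log2 difference of 1.63 that ranged from 1.55 to 2.14 where 1 library was left out. CRA1, a cruciferin and one of the main storage globulins, had 24524, 37744 and 24560.5 CPM in hid1 seeds, against 5722, 5836 and 5199 CPM in phyB seeds, and WT seeds averaged 27437 CPM (log2 difference 2.37 ± 0.18 (SE), adjusted p = 6.14e-12). CRU3, another cruciferin, had 13440.0, 25909.6 and 13059 CPM in hid1 seeds, against 3258, 3217 and 2882 CPM in phyB seeds (log2 difference 2.49 ± 0.21 (SE), adjusted p = 6.09e-11). In both cruciferins hid1 replicate 2 lay above the other hid1 libraries, and even the lowest hid1 library was far above every phyB library. OLEO3, an oleosin of the oil body surface, had 88.2, 106 and 73.9 CPM in hid1 seeds, against 16.5, 21.0 and 15.6 CPM in phyB seeds (log2 difference 2.33 ± 0.14 (SE), adjusted p = 3.73e-14). ATPXG2, a peroxygenase of the caleosin family, had 416, 431 and 367 CPM in hid1 seeds, against 131, 139 and 130.1 CPM in phyB seeds (log2 difference 1.6 ± 0.12 (SE), adjusted p = 2.94e-12). The summed level of the list was 52160 to 87878 CPM in hid1, 14008 to 15255 in phyB and 53841 to 57628 in WT.

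Storage genes were at another level in the later phyB libraries. The phyB libraries labelled 24 h held 68445 to 75278 CPM in sum, and against them 6 members were higher in hid1 and 3 lower, with a median of -0.27. CRA1 averaged 34892 CPM there, and its difference from hid1 at 12 h was -0.27 (adjusted p = 0.183). In the comparison within 24 h, 1 member was higher and 11 lower in hid1 (median -1.69), and within 48 h 1 was higher and 12 lower (median -2.84). In the comparison of hid1 with WT at 12 h, 3 members were higher, and in that of phyB with WT 13 were lower. The 2S albumin genes SESA1 to SESA4 are near-identical neighbours, so their separate values are uncertain.

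LEA proteins, which protect dry cells, were split: 11 of 23 were higher in hid1 and 5 lower, against 33.9% and 29.5% of all genes. The median was 0.40, and the summed level was 29135 to 32977 CPM in hid1, 25649 to 27074 in phyB and 37665 to 39757 in WT. LEA18 was higher in hid1, at 2951, 3525 and 2676 CPM in hid1 seeds, against 1127, 1133 and 1080.3 CPM in phyB seeds (log2 difference 1.45 ± 0.16 (SE), adjusted p = 7.52e-09). COR47, a dehydrin, was lower, at 32.3, 28.7 and 33.7 CPM in hid1 seeds, against 72.1, 72.0 and 64.8 CPM in phyB seeds (log2 difference -1.14 ± 0.11 (SE), adjusted p = 6.46e-10). The hid1 and phyB libraries of both genes were fully apart, as in 68.4% of all genes tested. At 24 h the LEA list was lower in hid1 in 21 of 23 members, with a median of -1.31. The direction also turned for hid1 at 12 h against the phyB libraries labelled 24 h, with 2 higher and 15 lower, median -0.62.

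Genes that break down stored oil were more often higher than lower in hid1, 11 against 3 of 20, with a median of 0.38. Among all genes 33.9% were higher and 29.5% lower. The count of lower members was 5 or 6 under RLE scaling, total counts, the replicate block and DESeq2. The acyl-CoA oxidases of peroxisomal fatty acid breakdown did not move together. ACX4 had 267, 269 and 280.0 CPM in hid1 seeds, against 158, 158 and 164 CPM in phyB seeds (log2 difference 0.76 ± 0.05 (SE), adjusted p = 1.5e-12), and ACX3 differed by 0.67 ± 0.06, adjusted p = 5.96e-11. ACX2 had 388, 416 and 424 CPM in hid1 seeds, against 758, 744 and 752 CPM in phyB seeds (log2 difference -0.88 ± 0.07 (SE), adjusted p = 2e-11). Its phyB libraries were the higher ones, while those of ACX4 and ACX3 were the lower ones. PMDH2, a peroxisomal malate dehydrogenase, differed most, by 2.96 ± 0.28, adjusted p = 2.92e-10.

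**Figure D3:**
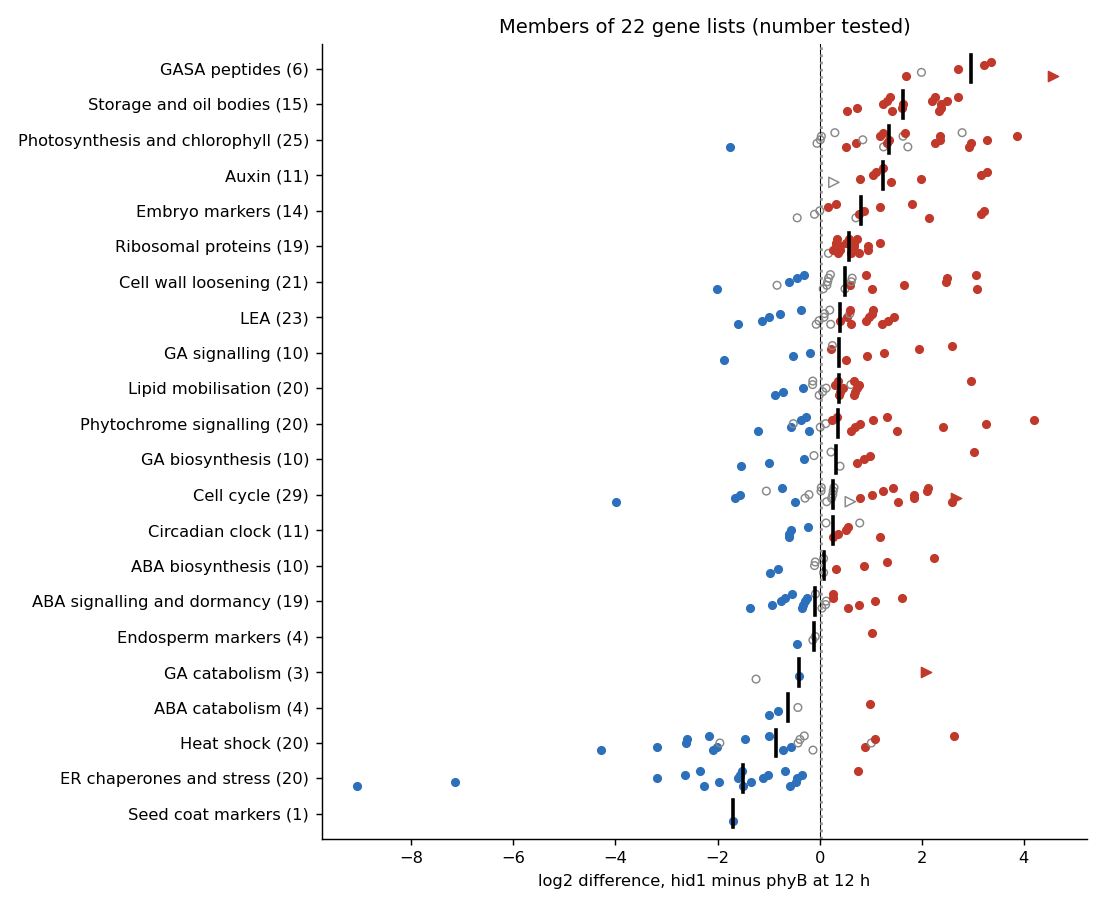
Log2 differences (hid1 minus phyB at 12 h) of the tested members of 22 gene lists, with filled points for members at an adjusted p under 0.05, a bar at each median, and triangles for genes with 0 counts in a mutant, drawn at their bound. The ER list has the lowest median of the lists with more than 1 member, -1.51, and the GASA list the highest, 2.96, while the dotted line marks the median of all genes, 0.03.

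ABA genes did not move in 1 direction. In ABA biosynthesis 4 of 10 members were higher in hid1, 2 were lower and 4 did not pass, with a median of 0.08, a split near the 33.9% higher and 29.5% lower of all genes. Set against the phyB libraries labelled 24 h, 4 were higher and 5 lower, median -0.33. ABA1, the zeaxanthin epoxidase at the start of the pathway, had 146, 149 and 147 CPM in hid1 seeds, against 82.3, 79.9 and 80.6 CPM in phyB seeds, and WT seeds averaged 182 CPM (log2 difference 0.86 ± 0.08 (SE), adjusted p = 8.52e-11). ABA2, the xanthoxin dehydrogenase, had 4.94, 3.83 and 4.35 CPM in hid1 seeds, against 9.34, 7.69 and 8.70 CPM in phyB seeds (log2 difference -0.97 ± 0.15 (SE), adjusted p = 3.29e-06). ABA3, which makes the cofactor of the last enzyme, had 27.5, 23.4 and 27.6 CPM in hid1 seeds, against 45.6, 43.7 and 48.3 CPM in phyB seeds (log2 difference -0.81 ± 0.09 (SE), adjusted p = 3.85e-09). For these 3 genes the libraries were fully apart, as in 68.4% of all genes tested. The hid1 level was above that of phyB in ABA1 and below it in ABA2 and ABA3.

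The NCED genes encode the dioxygenase that cleaves carotenoids, the step that limits ABA synthesis. NCED3 had 0.908, 0.743 and 0.692 CPM in hid1 seeds, against 0, 0.287 and 0.171 CPM in phyB seeds (log2 difference 2.25 ± 0.47 (SE), adjusted p = 0.000116). NCED2 had 1.31, 0.972 and 1.04 CPM in hid1 seeds, against 0.457, 0.459 and 0.398 CPM in phyB seeds (log2 difference 1.32 ± 0.37 (SE), adjusted p = 0.00277). NCED9, a member with a known part in seed ABA, had 11.7, 11.6 and 13.4 CPM in hid1 seeds, against 10.2, 9.41 and 9.78 CPM in phyB seeds (log2 difference 0.32 ± 0.10 (SE), adjusted p = 0.00598). All NCED3 and NCED2 values were near or under 1 CPM, and the call for NCED9 was lost with total counts (0.16, adjusted p = 0.201) and without hid1 replicate 3 (0.25, adjusted p = 0.0529). NCED5 (0.08), NCED6 (-0.09), ABA4 (0.08) and AAO3, the last enzyme (-0.10), did not pass, though AAO3 did with total counts (-0.27, adjusted p = 0.0258). The sign of the ABA1 difference changed with time, as it was -1.18 at 24 h and -1.49 at 48 h, and against the phyB libraries labelled 24 h it was -0.15 (adjusted p = 0.0786).

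ABA breakdown was read from 4 tested genes, 1 of which was higher and 2 lower in hid1. Among all genes 33.9% were higher and 29.5% lower, and 4 genes are too few to set against these shares. CYP707A2, the 8′-hydroxylase that removes ABA early in imbibition, had 82.7, 75.6 and 84.6 CPM in hid1 seeds, against 39.6, 45.01 and 37.2 CPM in phyB seeds (log2 difference 0.99 ± 0.09 (SE), adjusted p = 1.95e-10). CYP707A3 differed by -0.99 ± 0.26, adjusted p = 0.0015. CYP707A1 differed by -0.82 ± 0.35, adjusted p = 0.0437, a call that was lost when any library except phyB replicate 3 was left out (adjusted p 0.0533 to 0.137). UGT71B6, which joins ABA to glucose, differed by -0.43 (adjusted p = 0.152), but passed with total counts (-0.59, adjusted p = 0.0477) and without hid1 replicate 1 (-0.69, adjusted p = 0.0388). The CYP707A2 difference was 1.41 at 24 h and 2.49 against the phyB libraries labelled 24 h.

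In ABA signalling and dormancy 6 of 19 genes were higher in hid1 and 9 lower, median -0.08, against 33.9% higher and 29.5% lower among all genes. Set against the phyB libraries labelled 24 h, 4 were higher and 12 lower, median -0.45. EEL, a bZIP factor of the ABI5 family, had 51.1, 49.3 and 49.7 CPM in hid1 seeds, against 16.6, 17.2 and 15.5 CPM in phyB seeds (log2 difference 1.61 ± 0.13 (SE), adjusted p = 1.13e-11). ABI4, an AP2 factor of ABA response, had 74.9, 70.7 and 69.2 CPM in hid1 seeds, against 30.9, 35.9 and 34.3 CPM in phyB seeds (log2 difference 1.09 ± 0.10 (SE), adjusted p = 3.93e-10). ABI1, a phosphatase that damps ABA signals, had 21.9, 20.5 and 23.0 CPM in hid1 seeds, against 43.2, 39.0 and 43.8 CPM in phyB seeds (log2 difference -0.94 ± 0.07 (SE), adjusted p = 1.99e-12). No library of one mutant fell in the range of the other in these 3 genes, as in 68.4% of all genes tested. DOG1, the dormancy gene, was low in both, at 0.568, 1.83 and 0.544 CPM in hid1 seeds, against 2.55, 2.35 and 2.56 CPM in phyB seeds (log2 difference -1.36 ± 0.35 (SE), adjusted p = 0.00121), with hid1 replicate 2 nearest to the phyB libraries. ABI5, the bZIP factor that arrests growth after germination, had 311, 300.2 and 288 CPM in hid1 seeds, against 383, 372 and 369 CPM in phyB seeds (log2 difference -0.32 ± 0.07 (SE), adjusted p = 9.04e-05). ABI3, a regulator of maturation, differed by -0.25 ± 0.07, adjusted p = 0.00398, and SOM, a zinc finger target of PIF1, by -0.35 ± 0.08, adjusted p = 0.000324. These last 3 differences were under 1.5-fold.

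GA biosynthesis held 4 genes higher and 3 lower in hid1 of 10 tested, median 0.31, also near the 33.9% and 29.5% of all genes. With the phyB libraries labelled 24 h instead, 4 were higher and 5 lower, median -0.23. KAO2 and CYP88A3, the ent-kaurenoic acid oxidases of the middle of the pathway, differed by 0.98 ± 0.07, adjusted p = 3.93e-13, and by 0.86 ± 0.07, adjusted p = 6.43e-11. GA20OX3 had 49.6, 103 and 55.4 CPM in hid1 seeds, against 199, 209.9 and 193 CPM in phyB seeds (log2 difference -1.53 ± 0.23 (SE), adjusted p = 1.89e-06). GA3OX2, one of the enzymes that make bioactive GA in seeds, had 1.48, 1.201 and 1.33 CPM in hid1 seeds, against 0.131, 0.0574 and 0.284 CPM in phyB seeds (log2 difference 3.02 ± 0.49 (SE), adjusted p = 3.95e-06). GA3OX1, the other, had 8.57, 6.69 and 7.02 CPM in hid1 seeds, against 5.22, 7.12 and 6.65 CPM in phyB seeds and did not pass (0.22, adjusted p = 0.316). The libraries of hid1 and phyB overlapped in GA3OX1 and were apart in GA20OX3 and GA3OX2. Among 3 genes of GA breakdown, GA2OX2 differed by -0.41 ± 0.13, adjusted p = 0.00782, which was lost without hid1 replicate 2 (adjusted p = 0.0612), and GA2OX8 had 14 counts in hid1 and 0 in phyB, at least 4.24-fold higher in hid1, with phyB set at 3 counts in sum. In this short list the counts were 2 lower with total counts or DESeq2 and 0 higher in the fit of the 6 libraries alone.

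In GA signalling 6 of 10 genes were higher in hid1 and 3 lower, median 0.38, with the lower share near the 29.5% of all genes. The DELLA proteins hold back GA responses until GA removes them. RGL3 had 182, 169 and 179 CPM in hid1 seeds, against 27.9, 32.0 and 27.8 CPM in phyB seeds (log2 difference 2.60 ± 0.07 (SE), adjusted p = 1.91e-21). RGL2, the main DELLA of seed germination, had 293, 324 and 324 CPM in hid1 seeds, against 131, 145 and 116 CPM in phyB seeds (log2 difference 1.27 ± 0.07 (SE), adjusted p = 1.74e-14). GAI differed by 0.51 ± 0.07, adjusted p = 1.41e-07. GID1A, a GA receptor, went the other way with 71.0, 77.4 and 68.1 CPM in hid1 seeds, against 103, 107 and 102 CPM in phyB seeds (log2 difference -0.53 ± 0.07 (SE), adjusted p = 1.57e-07). The RGL3 difference was 2.44 at 24 h, 1.21 at 48 h and 3.11 against the phyB libraries labelled 24 h.

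The GASA peptides, small secreted cysteine-rich proteins many of which respond to GA, were higher in hid1 in 5 of 6 tested members, and the other difference was above 0 too. Their median of 2.96 was the highest of the 22 lists. With the phyB libraries labelled 24 h instead, 4 were higher in hid1 and 1 lower, median 1.55. GASA6, which promotes cell elongation in germination, had 124, 163 and 169 CPM in hid1 seeds, against 12.9, 17.0 and 19.2 CPM in phyB seeds, and WT seeds averaged 24.6 CPM (log2 difference 3.21 ± 0.27 (SE), adjusted p = 3.55e-11). GASA3 had 885, 913 and 895 CPM in hid1 seeds, against 87.2, 96.3 and 78.3 CPM in phyB seeds (log2 difference 3.36 ± 0.14 (SE), adjusted p = 1.21e-17). GASA2 had 64.4, 53.6 and 54.3 CPM in hid1 seeds, against 17.69, 19.1 and 16.9 CPM in phyB seeds (log2 difference 1.68 ± 0.20 (SE), adjusted p = 3.28e-08). All hid1 libraries lay above all phyB libraries in the 3 genes, while 68.4% of all genes tested had no overlap in either direction. Reads of GASA2 and GASA3, which are alike in sequence, may be shared. GASA4, chosen after its values were seen, had 78 counts in hid1 and 0 in phyB, at least 23.64-fold higher. The comparison of hid1 with WT gave 2.64 for GASA6 and -0.01 for GASA3, and that of phyB with WT gave -0.57 for GASA6 and -3.37 for GASA3. GASA2 had 110, 133 and 168 CPM in the phyB libraries labelled 24 h, above every hid1 library at 12 h.

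Phytochrome signalling genes were higher in hid1 in 11 of 20 cases and lower in 5, against 33.9% and 29.5% of all genes. The median was 0.36, or 0.34 without a gene at or under 3 counts in both mutants. PIL5, which encodes PIF1, had 339, 295 and 323 CPM in hid1 seeds, against 106, 121 and 106 CPM in phyB seeds, and WT seeds averaged 284 CPM (log2 difference 1.52 ± 0.06 (SE), adjusted p = 2.52e-17). PIF3, a PIF of dark growth, had 45.6, 42.3 and 52.6 CPM in hid1 seeds, against 25.4, 27.6 and 27.8 CPM in phyB seeds (log2 difference 0.80 ± 0.07 (SE), adjusted p = 1.11e-10). PIF4, known for growth in warmth and shade, had 2.72, 2.46 and 2.77 CPM in hid1 seeds, against 0.131, 0.230 and 0.0569 CPM in phyB seeds (log2 difference 4.19 ± 0.36 (SE), adjusted p = 4.78e-11). In each, all hid1 libraries were above all phyB libraries, while 68.4% of all genes tested had no overlap in either direction. The hid1 levels lay near WT, with hid1 minus WT at 0.17 for PIL5, 0.10 for PIF3 and -0.28 for PIF4. For PIL5 the difference from phyB was 0.35 at 24 h and -0.95 at 48 h, and against the phyB libraries labelled 24 h it was 1.64. Of the other members, chosen after their values were seen, the bZIP genes HYH and HY5 of light response differed by 3.27 and 0.61, PHYA, the far-red photoreceptor, by -0.37, and FHL, which carries phyA into the nucleus, by -1.21.

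**Figure D4:**
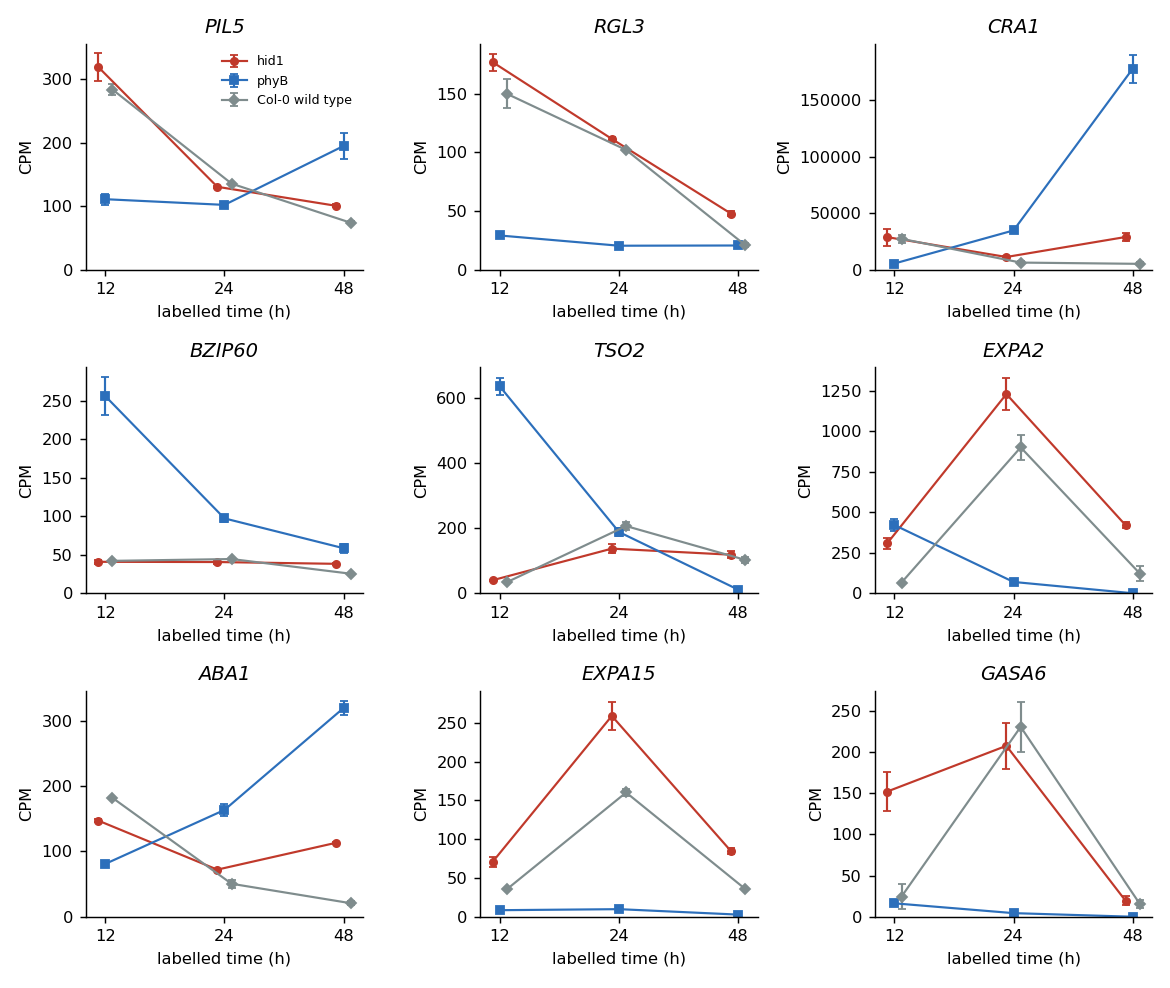
Mean CPM and SD (n = 3) of 9 genes in hid1, phyB and WT by labelled time (h), each panel starting at 0. At 12 h phyB lies apart from hid1 and WT in PIL5, RGL3, CRA1, BZIP60, TSO2 and ABA1, whereas EXPA2 is at 309 CPM in hid1, 421 in phyB and 66.5 in WT.

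Cell wall loosening genes gave a split at 12 h, with 8 of 21 higher in hid1, 4 lower and 9 that did not pass, median 0.50. The share of higher genes was near the 33.9% of all genes. The count of lower genes was 1 without hid1 replicate 2 and 2 without phyB replicate 2. EXPA15, an expansin, had 76.8, 64.1 and 71.9 CPM in hid1 seeds, against 7.90, 10.2 and 7.39 CPM in phyB seeds (log2 difference 3.06 ± 0.10 (SE), adjusted p = 1.42e-19). EXP3, another expansin, had 158, 120.3 and 154 CPM in hid1 seeds, against 23.2, 30.7 and 24.1 CPM in phyB seeds (log2 difference 2.47 ± 0.15 (SE), adjusted p = 5e-14). MAN7, an endo-beta-mannanase that softens the endosperm, had 252, 248 and 287 CPM in hid1 seeds, against 124, 144 and 122 CPM in phyB seeds (log2 difference 1.02 ± 0.10 (SE), adjusted p = 1.04e-09). These 3 had no overlap, as 68.4% of all genes tested, and EXPA8 also was higher, by 1.64 ± 0.15, adjusted p = 2.45e-10. EXPA2, an expansin of the germinating endosperm, had 324, 268 and 334 CPM in hid1 seeds, against 419, 459.9 and 385 CPM in phyB seeds, with a lower level in hid1 (log2 difference -0.45 ± 0.15 (SE), adjusted p = 0.0107). That call was lost without hid1 replicate 2 (adjusted p = 0.0668) and without phyB replicate 2 (adjusted p = 0.0526). At 24 h, 18 members were higher in hid1 and 1 lower (median 3.23), as at 48 h (median 3.90), with EXPA2 at 4.13 and 9.78.

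Cell cycle and DNA replication genes were higher in hid1 in 11 of 29 cases and lower in 5, median 0.26, a share of higher genes near the 33.9% of all genes. All 6 MCM genes, which encode the replicative helicase, were higher, by 0.79 to 2.60. MCM2 had 18.22, 19.3 and 17.5 CPM in hid1 seeds, against 5.16, 6.26 and 3.87 CPM in phyB seeds (log2 difference 1.85 ± 0.12 (SE), adjusted p = 2.08e-13). PRL, the MCM7 gene, had 11.6, 10.5 and 12.2 CPM in hid1 seeds, against 2.22, 1.84 and 1.65 CPM in phyB seeds (log2 difference 2.60 ± 0.17 (SE), adjusted p = 2.77e-13). TSO2, the small subunit of ribonucleotide reductase that makes deoxynucleotides, went the opposite way, with 39.2, 41.1 and 40.6 CPM in hid1 seeds, against 654, 649 and 607 CPM in phyB seeds, and WT seeds averaged 34.4 CPM (log2 difference -3.98 ± 0.08 (SE), adjusted p = 4.29e-23). The libraries of the 2 mutants were apart in all 3 genes, as in 68.4% of all genes tested. TSO2 was more than 10-fold lower in every hid1 library than in any phyB library. CYCD2;1, a D-type cyclin, differed by 1.02 ± 0.06, adjusted p = 3.73e-14. The TSO2 difference was -0.46 at 24 h and 3.39 at 48 h.

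Auxin genes were higher in hid1 in 8 of 11 cases, against 33.9% of all genes, median 1.24. No other member had a difference below 0, but little can be read from this. In the list 2 members were at or under 3 counts in both mutants, and IAA19 had 4 counts in hid1 and 0 in phyB. PIN4 had 7.21, 6.12 and 5.48 CPM in hid1 seeds, against 0.522, 1.03 and 0.341 CPM in phyB seeds, and PIN7 had 28.8, 28.7 and 33.1 CPM in hid1 seeds, against 11.9, 14.5 and 11.8 CPM in phyB seeds. These auxin efflux carriers differed by 3.28 ± 0.23, adjusted p = 7.22e-13, and by 1.24 ± 0.11, adjusted p = 5.19e-11, and the influx carrier LAX2 by 3.16 ± 0.25, adjusted p = 8.93e-12. No library of the mutants overlapped in these 3 genes, as in 68.4% of all genes tested.

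Markers of the embryo followed. Of 14 genes 9 were higher in hid1, with a median of 0.82 (0.77 without a gene at or under 3 counts in both mutants). Among all genes 33.9% were higher and 29.5% lower. In the embryo list 1 or 2 were lower with total counts, without the filter, in the fit of 6 libraries alone, under the replicate block and with DESeq2. PDF1, an epidermal gene, had 94.5, 98.7 and 88.0 CPM in hid1 seeds, against 9.86, 9.41 and 10.7 CPM in phyB seeds (log2 difference 3.23 ± 0.14 (SE), adjusted p = 3.25e-17). SCR and SHR, which pattern the root ground tissue, differed by 0.86 ± 0.06, adjusted p = 4.11e-12, and by 2.14 ± 0.25, adjusted p = 1.58e-08, and PLT1, a root stem cell factor, by 3.15 ± 0.25, adjusted p = 1.08e-11. The summed level of the embryo list was 597 to 634 CPM in hid1, 472 to 486 in phyB and 495 to 510 in WT. For the endosperm list it was 517 to 624 CPM in hid1, 509 to 606 in phyB and 190 to 219 in WT, with 1 of 4 tested genes higher (MAN7) and 1 lower (EXPA2), and 4 of the 8 markers were too low to test. Of 7 seed coat markers only the proton pump gene AHA10 was tested, and it had 1.48, 1.09 and 1.19 CPM in hid1 seeds, against 4.05, 4.13 and 3.98 CPM in phyB seeds (log2 difference -1.70 ± 0.19 (SE), adjusted p = 1.6e-08). The part of these tissues in the other results was not tested.

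Cytosolic ribosomal proteins were higher in hid1 in 18 of 19 cases, and the other difference was above 0 too, with a median of 0.58. RPS13A, of the small subunit, had 622, 641 and 623 CPM in hid1 seeds, against 269.5, 298 and 263 CPM in phyB seeds (log2 difference 1.18 ± 0.10 (SE), adjusted p = 8.68e-11). RPS6 and RP1 differed by 0.95 ± 0.10, adjusted p = 2.13e-09, and by 0.94 ± 0.09, adjusted p = 2.91e-10. The hid1 and phyB libraries did not overlap in any of the 19 genes, as in 68.4% of all genes tested. The list stayed higher at 24 h (18 of 19, median 0.63) and at 48 h (19 of 19, median 1.25), and 17 of 19 were higher against the phyB libraries labelled 24 h.

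Photosynthesis and chlorophyll genes were higher in hid1 in 14 of 25 cases and lower in 1, median 1.36, against 33.9% higher and 29.5% lower of all genes. RBCS1A, a small subunit of Rubisco whose copies are alike in sequence, had 258, 307 and 258 CPM in hid1 seeds, against 36.8, 40.5 and 31.1 CPM in phyB seeds (log2 difference 2.92 ± 0.16 (SE), adjusted p = 7.3e-15). LHCB4.1, of the light-harvesting antenna, had 38.1, 39.7 and 39.1 CPM in hid1 seeds, against 16.6, 17.3 and 17.2 CPM in phyB seeds (log2 difference 1.19 ± 0.09 (SE), adjusted p = 3.48e-12). CHLI1, a magnesium chelatase subunit, differed by 1.67 ± 0.15, adjusted p = 9.99e-11. HEMA1, which starts chlorophyll synthesis, was the 1 lower member, at 1.25, 1.49 and 1.38 CPM in hid1 seeds, against 4.44, 4.65 and 4.95 CPM in phyB seeds (log2 difference -1.77 ± 0.14 (SE), adjusted p = 1.72e-11). All 4 genes, taken by smallest p, were fully apart between hid1 and phyB, as were 68.4% of all genes tested.

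Genes of the organelle genomes moved with the shares given above. Of 104 chloroplast genes tested, 85 were higher in hid1 and 3 lower, median 2.24, and of 65 mitochondrial genes 53 were higher and 2 lower, median 2.36. The few lower genes numbered 1 to 5 (chloroplast) and 0 to 3 (mitochondrial) over the alternatives. PB, the chloroplast gene of the ATP synthase beta subunit, had 401, 359.5 and 374 CPM in hid1 seeds, against 22, 22.5 and 27.1 CPM in phyB seeds (log2 difference 3.98 ± 0.22 (SE), adjusted p = 5.78e-15). PSBD, the D2 protein of photosystem II, had 32.1, 25.8 and 30.04 CPM in hid1 seeds, against 2.09, 1.72 and 2.05 CPM in phyB seeds (log2 difference 3.91 ± 0.29 (SE), adjusted p = 3.48e-12). Libraries were prepared from poly(A) RNA, in which organelle transcripts are caught in part only, and the part of the preparation in these values was not tested. In the comparison of hid1 with phyB at 24 h, 13 mitochondrial genes were lower in hid1, median -0.63. For hid1 at 12 h against the phyB libraries labelled 24 h, 79 chloroplast genes were higher and 8 lower, median 1.92. Of the mitochondrial genes 52 were higher and 4 lower there, median 2.25.

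Clock genes were higher in 5 of 11 cases and lower in 4, median 0.25, with 2 higher under total counts. With the phyB libraries labelled 24 h instead, 2 were higher and 6 lower, median -0.25. Among all genes 33.9% were higher and 29.5% lower, so with 11 members the counts are near that background. RVE8, an evening gene activator, had 46.1, 50.1 and 40.9 CPM in hid1 seeds, against 20.3, 20.1 and 19.8 CPM in phyB seeds (log2 difference 1.19 ± 0.09 (SE), adjusted p = 2.87e-12). LHY and CCA1, the morning MYB factors, were lower, by -0.59 ± 0.11, adjusted p = 4.61e-05, and by -0.56 ± 0.11, adjusted p = 7.39e-05. PCL1, of the evening complex, differed by 0.56 ± 0.10, adjusted p = 9.49e-06. The sign thus differed between RVE8 and PCL1 on one side and LHY and CCA1 on the other.

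Beyond the lists, the genes with the largest differences are described next, among those that have a symbol, reach at least 10 CPM in the higher mutant and do not overlap between the mutants. PIFI, which takes part in chlororespiratory electron flow in chloroplasts, had 10.9, 8.75 and 10.6 CPM in hid1 seeds, against 0.783, 0.344 and 0.398 CPM in phyB seeds (log2 difference 4.32 ± 0.22 (SE), adjusted p = 1.49e-15). AGP31, an arabinogalactan protein of the cell wall, had 46.7, 41.6 and 46.8 CPM in hid1 seeds, against 2.29, 3.79 and 2.27 CPM in phyB seeds (log2 difference 4.01 ± 0.21 (SE), adjusted p = 3.96e-15). GSTF9, a glutathione transferase, had 101, 125 and 98.2 CPM in hid1 seeds, against 6.66, 7.35 and 6.88 CPM in phyB seeds (log2 difference 3.95 ± 0.16 (SE), adjusted p = 6.59e-18). In all 3 the phyB libraries were at a small part of the hid1 level. NSP2, a nitrile specifier protein that steers glucosinolate breakdown, had 272, 522 and 284 CPM in hid1 seeds, against 22.7, 19.5 and 28.5 CPM in phyB seeds (log2 difference 3.93 ± 0.25 (SE), adjusted p = 2.08e-13). PYK10, a beta-glucosidase of ER bodies, had 28.2, 9.66 and 31.1 CPM in hid1 seeds, against 0.849, 1.55 and 1.65 CPM in phyB seeds (log2 difference 4.07 ± 0.69 (SE), adjusted p = 8.92e-06). The hid1 libraries of these last genes were unlike each other, with replicate 2 the highest in NSP2 and the lowest in PYK10. That every hid1 library lay above every phyB library was a condition of the choice of these genes. Against the phyB libraries labelled 24 h, PYK10 differed by 0.45 (adjusted p = 0.422).

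Among the largest differences in the other direction, PMZ, a stress-induced zinc finger protein, had 1.70, 2.40 and 1.58 CPM in hid1 seeds, against 433, 393 and 428 CPM in phyB seeds (log2 difference -7.79 ± 0.18 (SE), adjusted p = 1.08e-22). AATP1, an AAA-type ATPase, had 1.36, 0.858 and 1.53 CPM in hid1 seeds, against 187, 174 and 167 CPM in phyB seeds (log2 difference -7.11 ± 0.17 (SE), adjusted p = 1.09e-22). CHR34, a chromatin remodelling protein of the SNF2 type, had 0.114, 0.572 and 0.494 CPM in hid1 seeds, against 49.8, 49.0 and 47.7 CPM in phyB seeds (log2 difference -6.92 ± 0.20 (SE), adjusted p = 6.11e-21). Each was under 3 CPM in every hid1 library and far above that in every phyB library. The phyB libraries labelled 24 h averaged 83.8 CPM of PMZ, 21.0 of AATP1, 15.2 of CHR34, 5.55 of SARA1A and 3.21 of BIP3. The pseudogene AT4G21730 had 2 counts in hid1 and 1739 in phyB, a ratio of phyB to hid1 of 956 (95% counting interval 264 to 7902). CYP89A3, a cytochrome P450, had 2 counts in hid1 and 600 in phyB, a ratio of 330 (90.9 to 2731).

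The 12 h difference was followed into libraries that it did not use. At 24 h, 13474 genes (65.8%) differed between hid1 and phyB, and at 48 h 16152 genes (78.9%). Of all genes tested, 34.3% were higher in hid1 and 31.5% lower at 24 h, and 41.0% were higher and 37.9% lower at 48 h. Of the 6928 genes higher in hid1 at 12 h, 3596 (51.9%) were higher at 24 h too and 1676 (24.2%) were lower, and at 48 h 3426 (49.5%) were higher and 2455 (35.4%) lower. Of the 6042 genes lower in hid1 at 12 h, 3049 (50.5%) were lower at 24 h and 1274 (21.1%) higher, and at 48 h 2869 (47.5%) were lower and 2039 (33.7%) higher. The shares that kept their direction lay above those of all genes at both times, by less at 48 h than at 24 h. The change of the difference between 12 and 48 h passed its own test in 14260 genes (69.7%). PIFI kept its difference, at 4.46 at 24 h and 4.32 at 48 h, whereas NSP2 turned to -3.00 and -4.46.

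**Figure D5:**
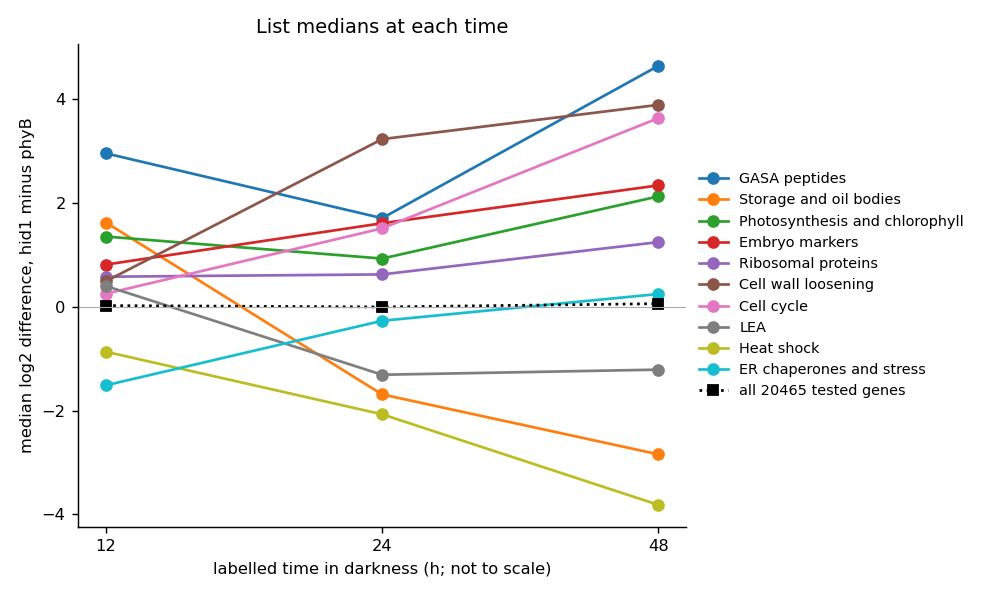
Median log2 difference (hid1 minus phyB) of 10 gene lists and of all tested genes at the labelled times 12, 24 and 48 h. Storage and oil body genes go from 1.63 at 12 h to -2.84 at 48 h, ER genes from -1.51 to 0.25, and cell wall genes from 0.50 to 3.90, while ribosomal protein genes stay above 0 at every time.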

How the data were processed

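Poly(A) RNA of seeds was sequenced by the authors from 1 µg of total RNA a library with a TruSeq kit, as 150-base pairs, per the labels. The submitters' processing notes name fastp, HISAT2 2.1.0, SAMtools 1.6 and TAIR10 as the genome. The sources used here do not give how reads were counted, on which annotation and whether by strand, so near-identical and antisense genes are uncertain. The deposited table holds raw counts of 33612 genes, of which 5633 had none. The authors' deposited FPKM table holds 1 value a group. It gave symbols, gene types (among them the ribosomal RNA genes), annotation text used to leave unrelated genes out of the families, and the HID1 values.

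Counts of all 27 libraries were fitted in edgeR 4.0.16 (limma 3.58.1, R 4.3.3) after filterByExpr and TMM scaling, with 1 coefficient for each of 9 groups and 18 residual degrees of freedom. Quasi-likelihood F tests were two-sided, adjusted by Benjamini-Hochberg over 20465 genes, with a threshold of 0.05. Each SE was derived from the test, as the size of the fitted log2 difference over the square root of F. Where a mutant had few counts and the difference was large, as in SARA1A, CHR34, PIFI and PIF4, this SE can be smaller than the counting error. Fold bounds use a floor of 3 counts a group, and counting intervals (95%) cover counting error only. Reads carry no molecular identifiers. The model was tested on data simulated from its own fitted spread, where 2-fold changes were recovered in 94% of 50 genes. Changes were planted only in genes with a mean of at least 50 counts, so the recovery does not extend to low counts. No other gene differed between the mutants at 12 h in the simulation, whereas 63.4% of genes did in these data. The simulation therefore did not test the scaling of libraries that differ so widely.

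Named were the 12 largest differences in each direction, without overlap and reaching 10 CPM in the higher mutant (genes without a symbol only among the 2 largest), up to 4 members of each list by smallest p, and a fixed set of ABA, GA and light genes. Of 334 genes on 22 lists, 312 were tested. Members and lists were chosen with earlier results of these data known. Some results are not reported here. Alternatives were RLE (a median-ratio scaling), total counts, no filter, the 6 libraries alone, a replicate block, DESeq2 1.42.0 and leaving out each library.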

Additional observations from a re-analysis of the deposited data

Results flagged for a closer look

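The difference between hid1 and phyB was not the same at 12 and 48 h, by the edgeR quasi-likelihood test of the change itself, in 14260 of 20465 genes. The change is the 48 h log2 difference minus the 12 h one (± SE), given for those named genes with the largest 12 h differences whose change passed. That of PIFI (0.00 ± 0.45, adjusted p = 1.0), that of AGP31 (0.66 ± 0.31, adjusted p = 0.0600) and that of HID1 (-1.11 ± 1.92, adjusted p = 0.557) did not pass. Among genes higher in hid1 at 12 h, it was -8.39 ± 0.35 for NSP2, -3.07 ± 0.20 for GSTF9, -3.05 ± 0.31 for PB and -2.12 ± 0.44 for PSBD, and for PYK10 it was 3.58 ± 1.15, a larger difference at 48 h. Among genes lower in hid1 at 12 h, it was 9.12 ± 0.43 for AATP1, 9.10 ± 0.35 for CHR34 and 6.70 ± 0.46 for PMZ. The fitted changes of SARA1A (10.70 ± 0.94), AT4G21730 (9.49 ± 1.92), BIP3 (7.95 ± 3.15) and CYP89A3 (5.93 ± 2.50) depend on the prior count and are not bounds, since these genes had 2 counts or fewer in every phyB library at 48 h. The phyB libraries labelled 12 h enter these values as labelled.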

How the results depend on the processing

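The number of genes that differed between hid1 and phyB at 12 h was 12970, and it was 13017 with RLE scaling, 13082 with total counts, 13018 without the filter, 12581 in the 6 libraries alone, 12779 with DESeq2 and 12211 to 12450 where 1 library was left out. Of the 12970 genes, 11454 (total counts) to 12732 (RLE scaling) were also called. Replicate numbers did not pair the libraries: deviations of same-numbered hid1 and phyB libraries correlated at -0.03, 0.00 and 0.01. With a replicate block 12432 genes were called, 11913 of them shared, and no call changed among the 113 named genes that this fit tested. Of 114 named genes, 6 changed their call under some alternative (CYP707A1, GA2OX2, EXPA2, AAO3, NCED9 and UGT71B6), and no call turned round. The change from 12 to 48 h passed in 14250 genes with RLE scaling and 14930 with total counts. Depth limits genes such as NCED3 and PIF4, which had under 1 CPM in phyB.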

Other observations

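Families outside the lists, chosen after their values were seen and therefore given as descriptions, are given next, beside the 29.5% of all genes that were lower in hid1 and the 33.9% that were higher. Members were found by their symbols, so genes of a family that go under other names were not counted. Those of the DNA damage response came from a set of names picked by hand. All 21 tested genes with symbols of the proteasome core particle, the chamber that cuts proteins, passed and were lower, with a median log2 difference of -2.01. PBD2 had 47.9, 47.2 and 44.9 CPM in hid1 seeds, against 351, 336 and 323 CPM in phyB seeds (log2 difference -2.85 ± 0.07 (SE), adjusted p = 4.1e-22, edgeR quasi-likelihood test). In the regulatory particle, the cap that unfolds them, 14 of the 16 genes found by symbol were lower, median -1.97. RPN1A had 279.7, 272 and 279.8 CPM in hid1 seeds, against 1347, 1322 and 1292 CPM in phyB seeds (log2 difference -2.25 ± 0.06 (SE), adjusted p = 6.94e-22). No hid1 library of either gene came near the phyB range. At 24 h the medians were -0.66 and -0.45, and against the phyB libraries labelled 24 h they were -0.58 and -0.42, against 0.03 over all genes at 12 h.

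Tau-class glutathione transferases, enzymes of detoxification, were lower in hid1 in 13 of 23 cases and higher in 4, median -0.86. GSTU24 had 9.25, 7.38 and 10.03 CPM in hid1 seeds, against 102, 89.6 and 113 CPM in phyB seeds (log2 difference -3.51 ± 0.15 (SE), adjusted p = 4.68e-17). WRKY factors, many of them known from defence, were lower in 23 of 47 cases and higher in 5, median -0.85. That median rests on genes near the floor. The middle gene, WRKY41, had 0.151 CPM in hid1 and 0.291 in phyB, and WRKY35 and WRKY72 had 0 in both. At 24 h 15 WRKY genes were lower and 6 higher, median -0.11. WRKY33 had 11.4, 9.04 and 11.7 CPM in hid1 seeds, against 126, 103 and 169 CPM in phyB seeds (log2 difference -3.63 ± 0.24 (SE), adjusted p = 3.41e-13). GSTU24 and WRKY33 were many-fold lower in each hid1 library than in any phyB library. Genes of the DNA damage response, picked by hand, were lower in 11 of 15 cases and higher in 3, median -0.90. At 24 h 7 were lower and 3 higher, median -0.17. The 3 higher at 12 h were BARD1 (5.96, with 0, 0.0574 and 0 CPM in phyB), RAD51B (1.77) and ATM (0.51). PARP2, a poly(ADP-ribose) polymerase, differed by -2.29 ± 0.11, adjusted p = 4.72e-16. Outside these families, AOX1A, the alternative oxidase of mitochondria, differed by -5.30 ± 0.19, adjusted p = 3.58e-19, ERO1, which reoxidises disulfide isomerases in the ER, by -4.20 ± 0.17, adjusted p = 5.41e-18, and NAC103, a factor downstream of bZIP60, by -4.21 ± 0.09, adjusted p = 5.88e-23.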
